A study of Homo sapiens with 8 samples.

Results

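The genes described here are the AP-1 and EGR immediate early factors, chosen by name as the FOS family (FOS, FOSB, FOSL1, FOSL2), the JUN family (JUN, JUNB, JUND), ATF3, EGR1 and EGR2. Of these 10 genes, 9 were each the single gene named for at least 1 probe set in the probe table used, with 17 of 22277 probe sets in all. No probe set had EGR2 as its single gene in that table, and probe sets with several genes were left out, so EGR2 was not analysed here. RNA came from A375P, a human melanoma cell line, in which lentiviral short hairpin RNAs were stably expressed. The control cells carried shGFP or shScr, and the knockdown cells carried hairpin 65 or hairpin 66 against PGC1α, with 2 arrays for each of the 4 hairpins. PGC1α (gene PPARGC1A) is a coactivator known for driving mitochondrial genes. All cells, controls included, received virus, were selected in puromycin for 48 h, and were harvested a further 48 h later. Culture medium and serum at harvest are not given in the sources used here.

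AP-1 is a dimer of basic leucine zipper (bZIP) proteins. JUN proteins pair with one another, with FOS proteins or with ATF proteins, whereas FOS proteins need a partner. The EGR proteins bind GC-rich DNA through zinc fingers. Growth factors and stress switch many of these genes, though not all, on within minutes, without new protein synthesis, largely through mitogen-activated protein (MAP) kinases. In melanoma cells AP-1, with FOSL1 and JUN among its subunits, is known for its part in the invasive, less pigmented cell state.

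A value is a signal on a linear scale, and a change is a difference of mean log2 signals with its standard error (SE) from limma. "Rose" and "fell" are used where p, adjusted by the Benjamini and Hochberg method over all 22215 probe sets tested, was under 0.05. Median signals per array lay between 137 and 142. PPARGC1A, the targeted gene, averaged 556 ± 11.7 over the control arrays against 125 ± 13.9 over the knockdown arrays (SD over 4 arrays each). The log2 difference between the 3′ and 5′ ACTB control probe sets, a measure of RNA quality, was 0.35 larger in the knockdown arrays, which did not overlap the controls (exact two-sided permutation p = 0.0286, the smallest that 4 against 4 arrays allow). For GAPDH the same difference was 0.01 (exact permutation p = 0.571). Of 8 melanocyte markers measured, 6 stood above the 75th percentile of probe sets by mean level, while 8 of 8 blood and endothelial markers and 5 of 8 fibroblast markers stood below the median. Of the melanocyte markers 4 fell and 0 rose, where 9.79% of all genes fell and 10.8% rose. Among the 4 were PMEL (means 1075 and 436), MITF (7420 and 4918) and S100B (3687 and 2704). The summed signal of the 8 melanocyte markers was 19826 to 21469 in the controls and 15711 to 17040 in the knockdown arrays. SOX10 went the other way (means 3652 and 4100) and was not called. With 1 probe set a gene, the signal filter, quantile or cyclic loess normalization or a trended variance 1 marker rose, and without shScr 7 fell. TYR and TYRP1 differed between the control hairpins (adjusted p = 0.0162 and 0.00166 in limma). The summed signal of 7 epithelial markers was 2859 to 3417 in the controls and 3449.8 to 3904 in the knockdown arrays, with EPCAM and CDH1 among the lowest signals. Most of that sum was KRT18, which rose (2619 to 3322, adjusted p = 0.0227), while ESRP1 of the same list fell (345 to 121, adjusted p = 5.59e-05). The summed signal of the fibroblast markers was 1130.5 to 1836 and 1500.2 to 1618, and that of the blood and endothelial markers 278 to 307 and 286 to 315. Of the fibroblast markers 1 rose, PDGFRB (means 76.9 and 110), and 0 fell. The part of the ACTB difference and of these markers in the results below was not tested, beyond a fit with the ACTB difference as a term. As the arms did not overlap in that difference, the fit cannot cleanly separate it from the knockdown. In bulk RNA, fewer cells with a transcript and less RNA per cell cannot be told apart.

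To show the DNA in front of the genes that moved most, 250 bases before the annotated start were taken from RefSeq (GRCh38.p14) for EGR1 and FOSB, for JUNB, and for FOS as the relative of FOSB that was not called. Of the 10 genes, 9 had a promoter entry. Capitals mark a CArG box (the site of serum response factor), TGACG (the core of the cAMP response element, on either strand, so also CGTCA) and TATAAA.
EGR1, chr5:138465229-138465478, plus strand: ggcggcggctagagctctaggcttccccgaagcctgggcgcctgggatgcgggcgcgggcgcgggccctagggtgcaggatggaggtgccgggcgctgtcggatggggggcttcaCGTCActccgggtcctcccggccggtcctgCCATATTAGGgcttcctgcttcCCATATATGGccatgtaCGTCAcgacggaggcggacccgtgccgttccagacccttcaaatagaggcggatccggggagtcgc
FOSB, chr19:45467746-45467995, plus strand: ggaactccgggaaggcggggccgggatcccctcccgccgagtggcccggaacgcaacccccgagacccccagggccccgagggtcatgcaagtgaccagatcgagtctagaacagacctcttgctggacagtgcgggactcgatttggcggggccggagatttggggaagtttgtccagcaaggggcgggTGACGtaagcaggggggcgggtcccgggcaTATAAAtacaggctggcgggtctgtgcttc
JUNB, chr19:12791236-12791485, plus strand: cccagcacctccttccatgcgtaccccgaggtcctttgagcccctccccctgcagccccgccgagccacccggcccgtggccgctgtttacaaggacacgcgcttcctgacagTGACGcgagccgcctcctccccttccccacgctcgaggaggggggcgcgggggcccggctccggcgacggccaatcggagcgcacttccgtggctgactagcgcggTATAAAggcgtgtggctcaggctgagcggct
FOS, chr14:75278578-75278827, plus strand: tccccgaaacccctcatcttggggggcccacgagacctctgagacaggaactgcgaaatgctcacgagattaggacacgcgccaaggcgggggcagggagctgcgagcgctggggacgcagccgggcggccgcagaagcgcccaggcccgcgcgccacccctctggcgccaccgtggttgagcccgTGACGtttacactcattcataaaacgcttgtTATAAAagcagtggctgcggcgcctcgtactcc

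In the EGR1 window 2 CArG boxes begin 105 and 83 bases before the start, and 2 matches to TGACG begin at 135 and 66. The FOSB and FOS windows are alike in their marked letters: TGACG begins 60 bases before the start of FOSB and 64 before that of FOS, with TATAAA at 30 and 33. JUNB has TGACG at 137 and TATAAA at 31. On both strands, a CArG box is found in 1.16% of 35116 RefSeq promoter windows of this length, TGACG in 21.2% and TATAAA in 10.7%. None of these 4 windows holds TGACTCA (the classical AP-1 site, found in 4.2% of windows), TGACGTCA (1.65%, a longer match that contains TGACG) or the EGR sites GCGTGGGCG (0.72%) and GCGGGGGCG (4.72%). The matches describe letters in these windows, not binding. Bases farther from the start were not searched, so a site missing here, in FOS or another gene, may lie beyond the window.

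Cells with PGC1α hairpins had higher signals for EGR1 and FOSB, both by about the same factor when the control hairpins were pooled. Against a single control hairpin the factors of EGR1 and FOSB were less alike. Smaller rises were those of JUNB, FOSL1 and 1 probe set of FOSL2. The signals of FOS, JUN, JUND and ATF3 did not pass the test. Of the 17 member probe sets, 6 rose and 0 fell (7 had an unadjusted p under 0.05 in limma), where 18.0% of all probe sets were called, 9.49% higher and 8.46% lower. With each gene represented by its probe set of highest mean signal, 5 of 9 genes rose and 0 fell; of 11963 genes, 20.6% were called, 10.8% higher and 9.79% lower. The median log2 change was 0.05 over the 17 probe sets and 0.23 over the 9 genes, against -0.01 (-0.005) over all probe sets and over all genes. The knockdown arrays all lay above the control arrays in the same 6 probe sets, against 12.2% of all probe sets; 24.0% did not overlap in either direction.

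**Figure D1:**
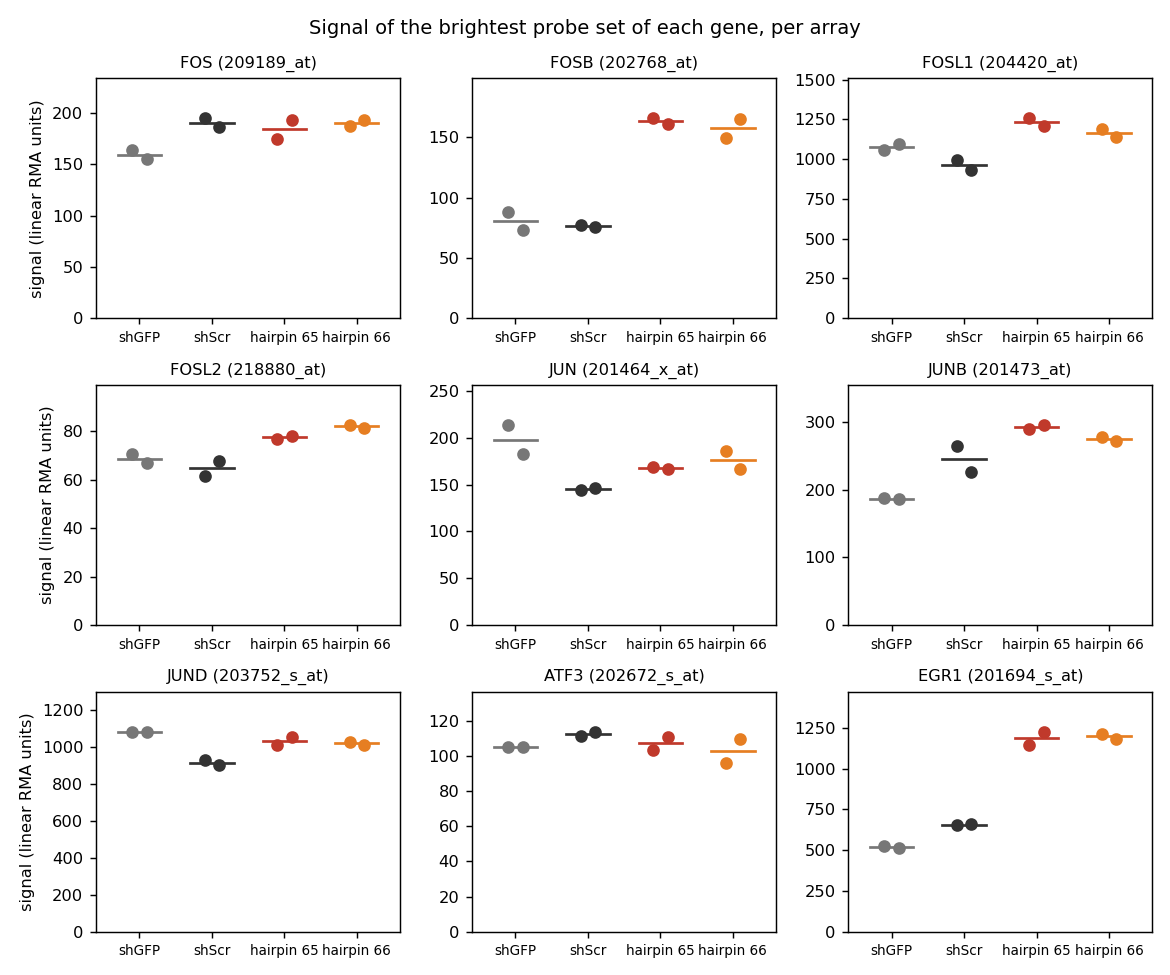
Signal (linear RMA units, axes from 0) of the highest-mean probe set of each of the 9 genes in the 8 arrays. Points are arrays and lines are means of the 2 arrays of a hairpin. EGR1 and FOSB separate the knockdown arrays from both control hairpins, JUNB rises from shGFP to shScr to the knockdown arrays, and FOS, JUN, JUND and ATF3 overlap between the arms.

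EGR1, a zinc finger transcription factor induced by growth factors, was measured by 2 probe sets. The brighter one read 528 and 511 with shGFP, 653 and 659 with shScr, 1146 and 1225 with hairpin 65 (1224.5), and 1210.5 and 1184 with hairpin 66. All 4 knockdown arrays thus stood above all control arrays, and the shGFP arrays stood lowest. The control mean was 588 ± 79.2 and the knockdown mean 1191 ± 34.4 (SD over 4 arrays each), 2.04-fold higher (log2 change 1.03, SE 0.09, adjusted p = 5.37e-05). The second EGR1 probe set read 120.1 and 121.6 with shGFP, 157 and 156 with shScr, and from 278 to 295 in the knockdown arrays. It was 2.09-fold higher (log2 change 1.06, SE 0.10, adjusted p = 6.71e-05). In both probe sets shGFP was lowest, shScr next and both knockdown hairpins highest. Against shScr alone the log2 changes were 0.86 and 0.88, and against shGFP alone 1.20 and 1.25, so the choice of control moved the size of the rise but not its call.

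FOSB, a FOS family subunit induced by sustained as well as brief stimuli, had 1 probe set. It read 87.7 and 73.1 with shGFP, 77.6 and 75.2 with shScr, 166 and 161 with hairpin 65, and 149.7 and 165 with hairpin 66. The controls lay close together and the knockdown arrays stood far above them. The control mean was 78.4 ± 6.47 and the knockdown mean 160.2 ± 7.34 (SD over 4 arrays each), 2.05-fold higher (log2 change 1.03, SE 0.07, adjusted p = 1.23e-05). Unlike EGR1, FOSB was not called between the control hairpins (log2 difference 0.07, SE 0.10, adjusted p = 0.774), though the difference between the genes there was not tested. At least 2-fold rises were called for 0.680% of all probe sets, and 3 of those were the probe sets of EGR1 and FOSB.

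FOSL1 (FRA-1), the FOS family subunit best known in invasive carcinoma and melanoma, had high signals in all arrays. It read 1059 and 1099 with shGFP, 998 and 935 with shScr, 1257 and 1211 with hairpin 65, and 1192 and 1137 with hairpin 66. The arms did not overlap, but the nearest arrays differed by little. The rise was 1.17-fold, with means of 1023 ± 71.5 and 1199 ± 49.4 (SD over 4 arrays each; log2 change 0.23, SE 0.06, adjusted p = 0.0316). It was called with hairpin 65 (log2 change 0.27, adjusted p = 0.0171) and not with hairpin 66 (0.19, adjusted p = 0.0672), while the difference between the hairpins was 0.08 (adjusted p = 0.835). Leaving out shScr replicate 1 or 2 (adjusted p = 0.0726 and 0.0746), hairpin 65 replicate 1 or 2 (0.089 and 0.0716) or hairpin 66 replicate 1 (0.0674) ended the call, as did leaving out shScr (0.152), hairpin 65 (0.219) or hairpin 66 (0.0871). With hairpin as a random block (estimated correlation 0.189) its adjusted p was 0.0521, and with the arrays of a hairpin averaged 0.196. Over 20 alternatives the adjusted p ranged from 0.0114 to 0.219.

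FOSL2 (FRA-2), a close relative of FOSL1, had 3 probe sets that differed. The brightest read from 61.7 to 70.5 in the controls and from 76.7 to 82.5 in the knockdown arrays, a 1.20-fold rise (log2 change 0.26, SE 0.06, adjusted p = 0.0123). The other two read from 30.3 to 55.7 over the control arrays and from 34.0 to 53.1 over the knockdown arrays, with log2 changes of -0.001 (SE 0.09) and -0.03 (SE 0.11). For those, the arms overlapped. The FOSL2 call was lost without hairpin 66 (adjusted p = 0.122) and with each hairpin averaged (adjusted p = 0.125).

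FOS, the founding FOS family member and a short-lived product of fresh stimulation, read 163 and 155 with shGFP, 195 and 186 with shScr, 175 and 193 with hairpin 65, and 188 and 193 with hairpin 66. The shGFP arrays were lowest, 1 shScr array lay among the knockdown arrays and the other stood just above them. Its log2 change was 0.10 (SE 0.08, 95% confidence interval -0.075 to 0.280, adjusted p = 0.445). Against shGFP alone it was 0.23 (adjusted p = 0.0481) and against shScr alone -0.03 (adjusted p = 0.856).

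Among the JUN family, which can pair with themselves or with FOS proteins, JUNB rose 1.33-fold, with means of 216 ± 37.2 and 284 ± 10.9 (SD over 4 arrays each; log2 change 0.41, SE 0.11, adjusted p = 0.0246). JUNB signals were 188 and 186 with shGFP, 265 and 225 with shScr, 290.3 and 295 with hairpin 65, and 278 and 272 with hairpin 66. The arms did not overlap, yet the higher shScr array came close to the lowest knockdown array. Against shGFP alone the log2 change was 0.60 (adjusted p = 0.000396), and against shScr alone it was 0.22 and not called (adjusted p = 0.124). The JUNB call was also lost without shGFP replicate 1 or 2 (adjusted p = 0.0659 and 0.0618), hairpin 65 replicate 1 or 2 (0.063 and 0.0682) or hairpin 66 replicate 1 (0.0545), and without hairpin 65 (0.187) or hairpin 66 (0.105) and with each hairpin averaged (0.143), in a range of 0.000396 to 0.187 over 20 alternatives.

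JUN, the subunit after which the family is named, was measured by 4 probe sets, and 0 of them were called (0 had an unadjusted p under 0.05 in limma). The brightest, whose suffix x_at marks possible matches to other transcripts, read 213 and 183 with shGFP, 144 and 147 with shScr, 168 and 167 with hairpin 65, and 185 and 167 with hairpin 66. The knockdown arrays lay above both shScr arrays, and 1 of them, with hairpin 66, also passed the lower shGFP array. Its log2 change was 0.02 (SE 0.12, 95% confidence interval -0.245 to 0.284). That value averages opposite signs: 0.24 against shScr alone (adjusted p = 0.0532) and -0.20 against shGFP alone (adjusted p = 0.142). The other JUN probe sets had mean control signals of 58.7, 45.3 and 21.0, and log2 changes of -0.03, -0.15 and -0.09. Against shScr alone these were 0.03, 0.08 and 0.02, and against shGFP alone -0.09, -0.37 and -0.20, none of them called.

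JUND, a subunit that many cells express without stimulation, had 1 bright and 2 dim probe sets. The bright one read 1078.5 and 1080.0 with shGFP, 926 and 900.3 with shScr, 1008 and 1054 with hairpin 65, and 1028 and 1012 with hairpin 66, with all knockdown arrays between the control hairpins. Its log2 change was 0.05 (SE 0.07, 95% confidence interval -0.113 to 0.206, adjusted p = 0.736). The dim ones had mean control signals of 33.1 and 24.0, near or under the lower quartile of the arrays (32.5 to 33.6), and log2 changes of 0.21 (adjusted p = 0.148) and 0.05 (adjusted p = 0.798). The first of these was called against shGFP alone (0.32, adjusted p = 0.0485) and not against shScr alone (0.10, adjusted p = 0.596). ATF3, a stress-induced bZIP factor that pairs with JUN proteins, read 104.8 on both shGFP arrays, 111 and 113 with shScr, 103 and 111 with hairpin 65, and 95.8 and 109.7 with hairpin 66. Its arms overlapped, and the log2 change was -0.05 (SE 0.06, 95% confidence interval -0.192 to 0.089, adjusted p = 0.66).

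**Figure D2:**
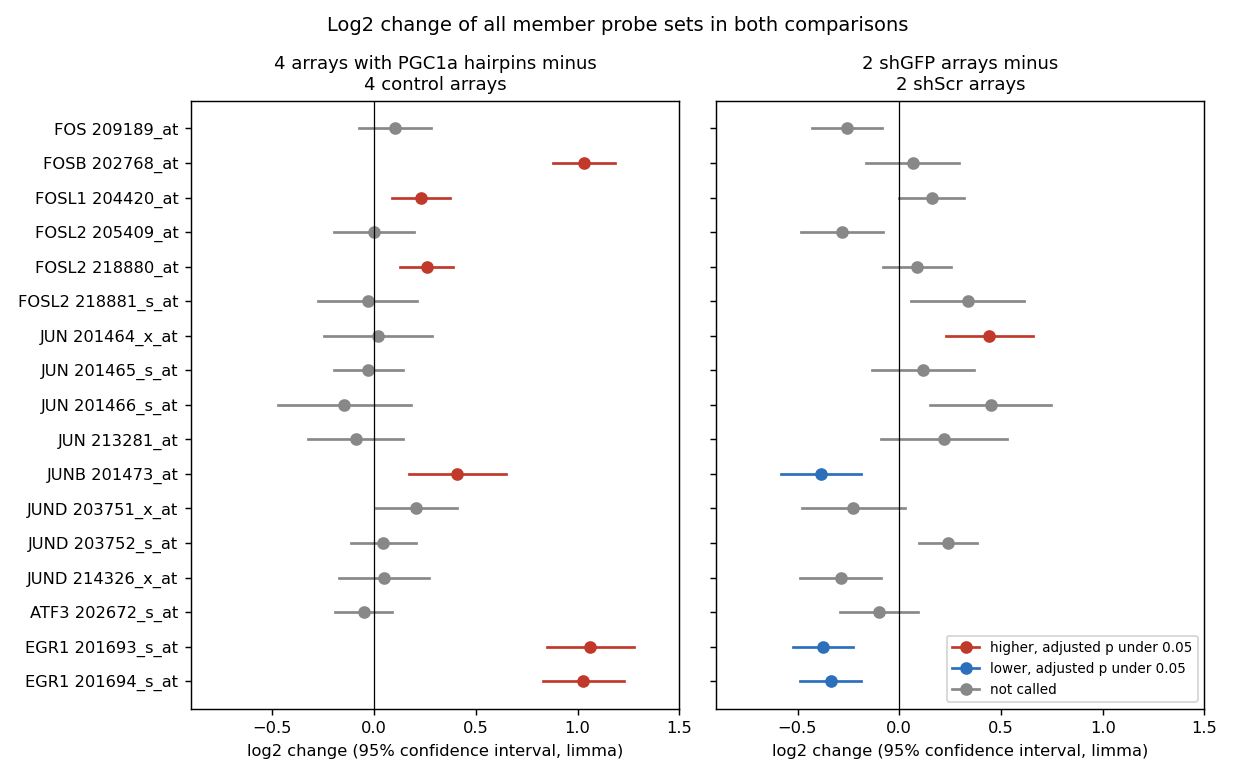
Log2 change with its 95% confidence interval from limma for the 17 member probe sets, left for 4 knockdown minus 4 control arrays and right for 2 shGFP minus 2 shScr arrays; red and blue mark higher and lower calls at an adjusted p under 0.05. On the left EGR1 and FOSB stand near 1 and the other calls lie between 0.23 and 0.41; on the right EGR1 and JUNB are lower and 1 JUN probe set is higher in shGFP.

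Taken singly, the PGC1α hairpins gave close values. Hairpin 65 called 6 of the 17 probe sets (18.2% of all probe sets were called, 10.1% higher and 8.11% lower) and hairpin 66 called 5 (17.2% of all, 8.71% higher and 8.46% lower), each of them higher than the controls. EGR1, by its brighter probe set, rose by 1.02 with hairpin 65 and 1.04 with hairpin 66 on the log2 scale, and FOSB by 1.06 and 1.01. JUNB rose by 0.45 and 0.36. Both comparisons share the 4 control arrays. Their p-values rest on the spread between arrays of the same hairpin, so the difference between shGFP and shScr does not enter it. For JUNB the SE was 0.07 with either hairpin, against 0.11 between the arms. Directly compared, hairpins 65 and 66 differed in 0 of the 17 member probe sets and in 0 of all 22215 by adjusted p in limma (0%), with 2 and 1518 at an unadjusted p under 0.05. The 2 were a JUN probe set (log2 difference -0.30) and a dim JUND probe set (0.20). For EGR1 the difference between the hairpins was -0.01 (-0.015, SE 0.06), and for FOSB 0.05 (SE 0.10).

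The control hairpins were compared to ask how far 2 hairpins without PGC1α as a target differ in these genes. The brighter EGR1 probe set was 1.26-fold lower in shGFP than in shScr (520 and 656, adjusted p = 0.0268), and the other was 1.30-fold lower (121 and 156, adjusted p = 0.0173). JUNB was 1.31-fold lower in shGFP (187 and 245, adjusted p = 0.043). JUN went the other way, 1.36-fold higher in shGFP by its brightest probe set (198 and 145, adjusted p = 0.0357). The 4 calls among 17 compare with 5.56% of all probe sets called between the controls, 3.12% higher and 2.44% lower in shGFP, and 11 of the 17 had an unadjusted p under 0.05. Among the genes not called, FOS was lower by 0.26 and the bright JUND probe set higher by 0.24 in shGFP on the log2 scale (adjusted p = 0.102 and 0.0715). With 1 array of a control hairpin left out, so that the lone array is assumed to vary like the others, 0 or 1 of the 17 probe sets passed. Those counts were 0 without shGFP replicate 1 or shScr replicate 1 (7 and 8 at an unadjusted p under 0.05) and 1 without replicate 2 of either. Of all probe sets, 2.01% and 2.14% were called without shGFP replicate 1 and shScr replicate 1, and 1.81% without replicate 2 of either.

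Whether EGR1, FOSB, JUNB and FOSL1 moved by more than FOS was examined through the difference of log2 signals on the same array, a comparison chosen after the values were seen. EGR1 exceeded FOS by 1.75 ± 0.06 in the controls and 2.67 ± 0.04 in the knockdown arrays (SD, n = 4 in each arm), a shift of 0.93 with no overlap (exact permutation p = 0.0286). For FOSB the shift was also 0.93, from -1.16 ± 0.20 to -0.23 ± 0.11 (exact permutation p = 0.0286). JUNB shifted by 0.31 (exact permutation p = 0.0286). FOSL1 shifted by 0.13 with overlapping arms (exact permutation p = 0.4). The shift between FOSB and EGR1 was 0.004 (exact permutation p = 0.943). That value averages control hairpins that differed: FOSB minus EGR1 was -2.591 and -2.806 with shGFP and -3.072 and -3.132 with shScr. The knockdown arrays lay between -3.016 and -2.791. Against shGFP alone the log2 changes were 0.999 for FOSB and 1.197 for the brighter EGR1 probe set. Against shScr alone they were 1.067 and 0.86. The difference between the genes was not tested against either control alone. With these exact permutation p-values adjusted over the 5 comparisons (Benjamini and Hochberg), the first 3 had p = 0.0476. EGR1, FOSB, JUNB and FOSL1 had been called and FOS had not in the same arrays, so these p-values add no support to those calls. They also count the 2 arrays of a hairpin as separate samples. The absolute differences compare different probe sets and carry no order of abundance.

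**Figure D3:**
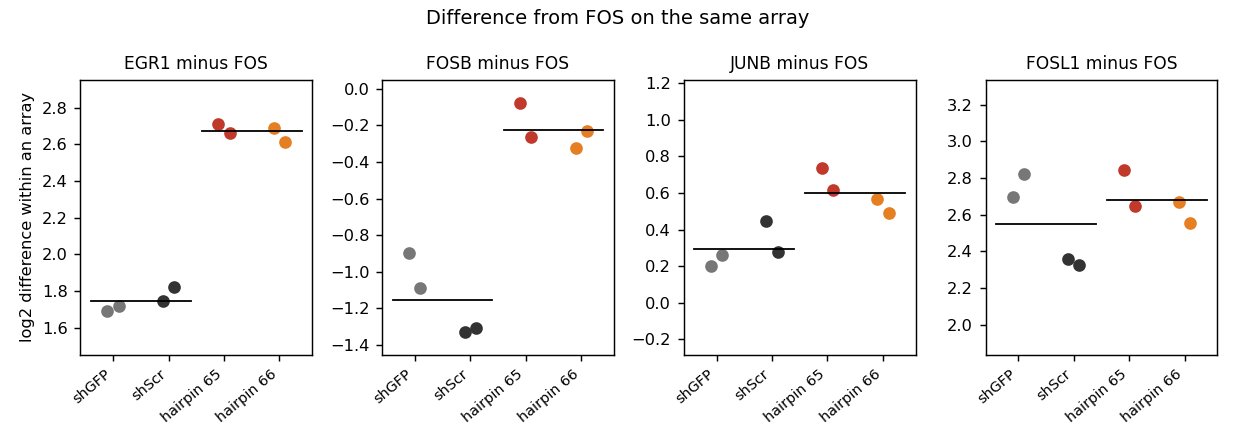
Log2 signal of EGR1, FOSB, JUNB and FOSL1 minus that of FOS on the same array, for the 8 arrays by hairpin; horizontal lines are the means of the 4 control and 4 knockdown arrays, and each axis spans the same 1.5 log2 units. EGR1 and FOSB shift by 0.93, JUNB by 0.31, and FOSL1 overlaps between the arms.

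The other genes of the pathway were taken from lists chosen with earlier results of these data known, each gene by its probe set of highest mean signal. Of 9 further EGR family genes, NAB corepressors and GC-box factors, 2 rose and 0 fell, with a median of 0.09. Of all genes, 10.8% rose and 9.79% fell. KLF4, a zinc finger factor that responds to stress and growth arrest, rose 3.79-fold, with means of 102 ± 37.6 and 368 ± 46.8 (SD over 4 arrays each; adjusted p = 0.000318). KLF4 also differed between the control hairpins, with shGFP below shScr (adjusted p = 0.0116). EGR3, itself an immediate early gene, rose 1.37-fold (463 to 632, adjusted p = 0.00164). NAB2, a corepressor that EGR1 induces, had a log2 change of 0.07 and was not called.

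Of 18 other bZIP partners measured, 3 rose and 0 fell, where 10.8% of all genes rose and 9.79% fell. The median log2 change of the 18 was 0.12. The 3 that rose were MAFF, a small MAF protein without an activation domain (1.49-fold, adjusted p = 0.0269), BATF3 (1.15-fold, adjusted p = 0.0214) and the photoreceptor factor NRL, at a low signal (23.3 to 28.9, adjusted p = 0.0299). MAFF read lower with shGFP (1931) than with shScr (2991, adjusted p = 0.00256). This count was 0 without either PGC1α hairpin, 0 without shGFP replicate 1 or hairpin 65 replicate 2, and 1 without shGFP replicate 2, hairpin 65 replicate 1 or either hairpin 66 replicate; it was 5 without shGFP. It was also 0 with each hairpin averaged, and NRL was not called with hairpin as a random block (adjusted p = 0.0577). Of 20 kinases of the ERK, JNK and p38 pathways with the ternary complex factors and SRF, 4 rose and 4 fell (median -0.03, -0.025). The largest change was that of RPS6KA2, an ERK-activated ribosomal S6 kinase, 3.05-fold lower (671 to 219, adjusted p = 4.05e-06). ELK3, a ternary complex factor that binds beside SRF, rose 1.48-fold (adjusted p = 0.000824) and MAP2K1, the kinase MEK1, 1.36-fold (adjusted p = 0.00328). The 4 falls were 2 without shGFP and 1 without either PGC1α hairpin, and 1 or 2 without shGFP replicate 1 or 2, shScr replicate 1, hairpin 65 replicate 2 or hairpin 66 replicate 1 or 2; the 4 rises were 2 without hairpin 66. With each hairpin averaged 1 rose and 1 fell, and with hairpin as a random block 2 fell. Calls over all probe sets dropped as well in these settings. In either direction they went from 18.0% to 8.92% without hairpin 65, 8.84% without hairpin 66, 6.02% with each hairpin averaged and 14.6% with the random block. SRF, the factor named for the CArG box, had a log2 change of 0.01 (0.007, SE 0.05).

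Among 31 other immediate early genes, 12 rose and 4 fell, with a median log2 change of 0.08, where 10.8% of all genes rose and 9.79% fell. The nuclear receptor NR4A2 rose 3.52-fold (429 to 1493, adjusted p = 1.65e-05) and the small GTPase GEM 2.04-fold (410.2 to 833, adjusted p = 1.81e-05). MYC, a growth-promoting transcription factor, was 1.77-fold lower (1280.3 to 723, adjusted p = 6.02e-06). Without hairpin 65, 7 of these genes rose, where 1040 of all 22215 probe sets rose and 942 fell (8.92% called). With each hairpin averaged 2 of these genes fell, where 783 of all probe sets rose and 554 fell (6.02% called). NR4A2 too had less signal with shGFP than with shScr (adjusted p = 0.022). Between the controls 7 of these 31 were lower and 2 higher in shGFP, where 6.59% of all genes were called, 3.72% higher and 2.87% lower.

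Of 23 genes listed as AP-1 targets, 10 rose and 0 fell, with a median log2 change of 0.18. For this list and the EGR1 targets, the share of all genes was 10.8% higher and 9.79% lower. The cytokine LIF went from 1199 to 3410.2 (adjusted p = 6.79e-07), the cytokine IL11 from 46.8 to 579 (adjusted p = 3.37e-06) and PTGS2, the inducible cyclooxygenase, from 50.7 to 161 (adjusted p = 4.05e-06). IL11 had less signal with shGFP than with shScr (adjusted p = 0.00637). The AP-1 targets counted 1 lower without shGFP, shGFP replicate 1, hairpin 65 or its replicate 2, or with the signal filter, quantile or cyclic loess normalization or a trended variance, and 2 lower without shScr. Of 18 genes listed as EGR1 targets, 4 rose and 1 fell, with a median of 0.15. PTGES, which makes prostaglandin E, rose 3.66-fold (90.4 to 328, adjusted p = 1.68e-05) and the angiogenic factor VEGFA 1.97-fold (1299 to 2549, adjusted p = 2.43e-05). HMOX1, heme oxygenase, was 2.63-fold lower (333 to 125, adjusted p = 8.49e-05). Without shGFP the EGR1 targets counted 3 lower, and 2 lower without shScr, without shGFP replicate 1, or with the signal filter, quantile normalization or a trended variance. With the ACTB difference as a further term in the model, 6 AP-1 targets, 2 EGR1 targets, 4 other immediate early genes, 0 bZIP partners, 0 kinases and 0 genes of the EGR and GC-box list rose. In that fit 3.05% of all probe sets were called (364 higher and 314 lower of 22215), against 18.0% without the term. The arms did not overlap in the ACTB difference, so the fit cannot cleanly separate it from the knockdown.

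**Figure D4:**
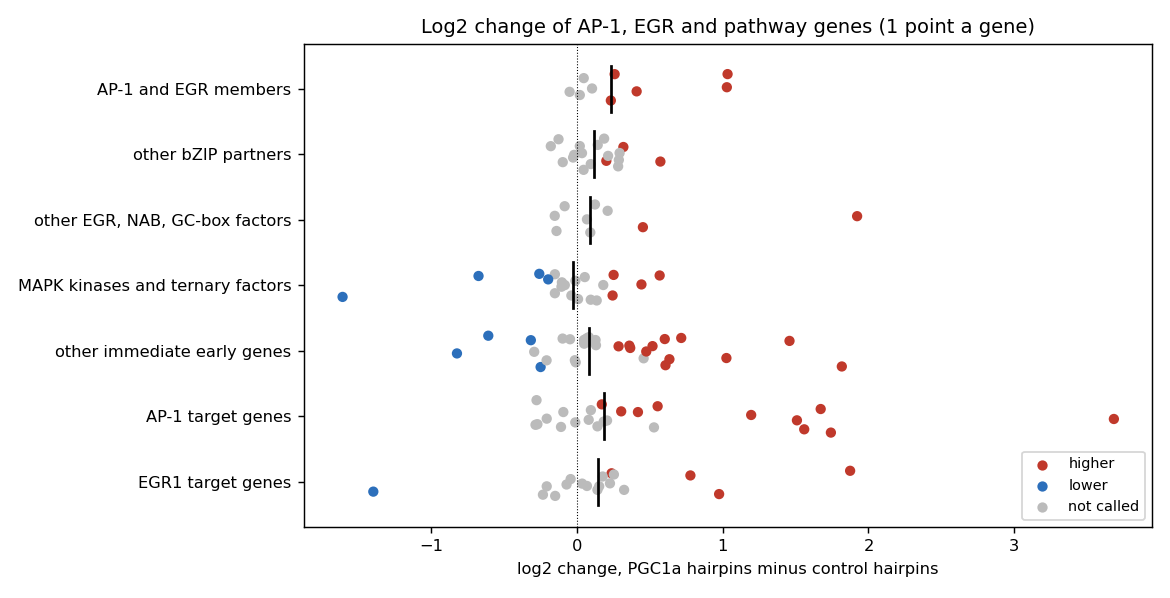
Log2 change between knockdown and control arrays for the 9 member genes and the genes of 6 related lists, 1 point a gene by its highest-mean probe set, with the list median as a bar; red and blue mark higher and lower calls and height within a row is random. Medians lie between -0.03 and 0.23, and the farthest point on the right is IL11.

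The genes closest to each rising member were sought by the root mean square difference of log2 signals, centred on each gene's mean, over the 8 arrays and 11954 other genes. Nearest to EGR1 were NPAS2, a clock transcription factor (0.06), VEGFA (0.07) and the metallothionein MT1E (0.07, 0.075), where the median gene stood at 0.54. Nearest to FOSB were SMAD3, a mediator of TGF-beta signals (0.08), the prolyl hydroxylase P4HA2 (0.10) and GEM (0.10), with a median of 0.54 (0.535). FOSL1 had BHLHE40, a repressor of the clock, as its nearest gene (0.02), then RPRD2 and SMARCC1. JUNB had DCAF16, EXTL1 and PFN2 (0.05 each), and FOSL2 had S100A14, ZC3H7A and GTPBP1 (0.04 each). These genes were picked for the smallest distances, so a value under that of the median gene follows from the choice. The nearest genes of EGR1 and FOSB also changed by a like factor, 1.98-fold for NPAS2 and 2.13-fold for SMAD3. This likeness describes 8 arrays that share 4 hairpins.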

How the data were processed

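Total RNA was copied from its poly(A) end with an oligo-dT primer and labelled with biotin as cRNA, per the labels' protocols. The deposited values are intensity values per probe set, made by the authors with RMA, per the submitters' processing notes (version not given in the sources used here); the linear scale was read from the values. No detection calls were used, so a low value may be background. Symbols came from the array's probe table, and 0 of them changed against RefSeq (GRCh38.p14). Log2 values of 22215 probe sets, without 62 control probe sets, were tested singly with limma 3.58.1 (R 4.3.3): the arms in a 2-group fit, single hairpins and the controls in a 4-group fit. The members and lists were chosen with earlier results of these data known. The rule for named genes takes all member probe sets, PPARGC1A, the 3 called genes of smallest p in each list, and the 3 nearest genes of each called member; others (NAB2, SRF) were named after their values were seen. The markers TYR, TYRP1, SOX10, EPCAM and CDH1 were also named outside that rule. A simulation of the 2-group fit on 22215 probe sets with 200 changed recovered 49.6% of changes of 1.25-fold and 98.8% of 2-fold changes. It used the spread within hairpins, without differences between hairpins of an arm, and fewer changed probe sets than the 3989 called here. Its rates therefore do not give the recovery in these data. Whether same-hairpin arrays stem from different cultures is not given in the sources used here; p-values then reflect the spread between these samples alone, which may be technical. Same-numbered arrays did not deviate together (correlations of -0.104 to 0.0273), so the numbers were not taken as pairs. The number of arrays limits the precision. Alternatives were another unit of testing, a signal filter, normalizations, variance models, a replicate block, hairpins averaged or as a random block, arrays and hairpins left out and, added after seeing the data, the ACTB difference as a covariate and a crossed block.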

Additional observations from a re-analysis of the deposited data

Results flagged for a closer look

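In 34 groups of 4 arrays (17 probe sets in 2 arms), 2 had an array that stood apart from the other 3, about what chance gives at 1 in 20. In the brightest JUN probe set, hairpin 66 replicate 1 stood above the other knockdown arrays, at 185 against 167 to 168, with a gap of 0.908 of the log2 range. In the dimmest JUN probe set, hairpin 66 replicate 2 stood above them, at 22.4 against 18.5 to 18.8, with a gap of 0.904 of the log2 range. JUN was not called between the arms with or without those arrays.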

How the results depend on the processing

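Of 17 member probe sets, 6 were called between the arms, and 4 to 6 with any 1 array left out. The count was 3 on leaving out hairpin 66, 3 on averaging each hairpin to 1 value and 3 with a covariate for the ACTB difference (added after seeing the data), where 8.84%, 6.02% and 3.05% of all probe sets were called against 18.0%; in these the 3 were the probe sets of EGR1 and FOSB, which were also called in every other setting that kept them. With the ACTB covariate the log2 changes were 0.97 (adjusted p = 0.015) and 0.996 (adjusted p = 0.0177) for EGR1 and 1.21 for FOSB (adjusted p = 0.000879), while JUNB (0.546), FOSL1 (0.475) and FOSL2 (0.123) were not called. The ACTB difference did not overlap between the arms, so calls kept or lost in that fit do not separate it from the knockdown. The signal filter kept 9 of 17 member probe sets, both of EGR1 and none of FOSL2. Probe sets that were not called changed sign 31 times over the 20 settings, in 9 of them, and 0 called ones did. Hairpin 65 against the controls gave 6 calls and hairpin 66 gave 5. With 1 array left out the count for hairpin 65 was always lower, and that for hairpin 66 was lower in some fits. Between the controls the count was 4, and 0 to 3 with 1 array left out (7 or more at an unadjusted p under 0.05 in limma). The replicate block left 2 calls between the controls, with JUNB (adjusted p = 0.0596) and the brighter EGR1 probe set (0.0512) lost, and changed no call between the arms. A crossed replicate block left hairpins 65 and 66 with 0 of 17 calls (0 at an unadjusted p under 0.05 in limma). Causes of these changes were not tested. Without detection calls, signals near the lower quartile limit what the dim JUN, JUND and FOSL2 probe sets can show.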
